A study of Mus musculus with 24 samples.

Results

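The 10 genes of a list of purine nucleotide breakdown and nucleoside uptake were followed in sorted intestinal epithelial cells of the mouse: *Enpp3*, *Entpd8*, *Nt5e*, *Ada*, *Pnp*, *Gda*, *Xdh*, *Slc28a1*, *Slc28a2* and *Slc28a3*. They were taken by name, with earlier results of these data known, and several are villus tip genes. All 10 were found among the 53465 genes of the count table and passed the filter on low counts. The cells came from Guca2a-Venus mice, in which a bacterial artificial chromosome transgene from 1 founder places the fluorescent protein Venus under the promoter of *Guca2a*, the gene of the gut hormone precursor proguanylin. From the duodenum, jejunum, ileum and colon of this transgenic line, flow cytometry took 2 sorts, named GFP positive and GFP negative in the labels. The positive sort was strongly Venus-fluorescent and the negative sort not fluorescent. Gates kept only live, nucleated cells without CD45. The negative cells are thus a mix of other live CD45-negative cells, and weakly fluorescent cells belong to neither sort. Each of the 8 groups had 3 libraries, 24 in all. Cells of each region came from 3 mice. The line was made in ova of C57Bl6J/CBA F1 crosses. Animals used in the study had been backcrossed to C57Bl6J for a varying number of generations (3 to 8). The labels give neither treatment nor age, and do not name the mouse behind a library, so that p-values measure the spread between these libraries.

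Purine nucleotides are taken apart in steps. In the gut lumen and at the cell surface, ectonucleotidases remove the phosphates. Of the later enzymes, adenosine deaminase turns adenosine into inosine, and purine nucleoside phosphorylase splits nucleosides into sugar and base. Guanine deaminase and xanthine oxidoreductase carry the bases to urate. Concentrative nucleoside transporters of the Slc28 family use the sodium gradient to bring intact nucleosides into the epithelial cell. Adenosine deaminase has long been known for its high activity in the epithelium of the mouse small intestine.

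The bases before the start sites of 3 of these genes are printed because *Ada* and *Slc28a2* were among the most alike pairs of the list over the libraries, and because *Slc28a2* and *Gda* were the members with a motif match. The sequences are from RefSeq (GRCm38.p6), cover the 250 bases before the start site, and are written 5′ to 3′ along the gene, with motif matches in capitals. *Ada* lies at chr2:163726584-163750239 on the minus strand, *Slc28a2* at chr2:122426477-122461137 on the plus strand and *Gda* at chr19:21391307-21473445 on the minus strand of GRCm38 (GENCODE spans). The start sites are those of RefSeq, and that of *Slc28a2* lies before and that of *Gda* within the span given.
Ada, chr2:163750240-163750489, minus strand: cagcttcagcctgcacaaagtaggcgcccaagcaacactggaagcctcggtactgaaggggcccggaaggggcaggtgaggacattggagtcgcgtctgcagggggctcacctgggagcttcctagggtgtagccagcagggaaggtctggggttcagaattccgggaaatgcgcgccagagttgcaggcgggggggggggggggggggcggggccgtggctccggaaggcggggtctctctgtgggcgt
Slc28a2, chr2:122426185-122426434, plus strand: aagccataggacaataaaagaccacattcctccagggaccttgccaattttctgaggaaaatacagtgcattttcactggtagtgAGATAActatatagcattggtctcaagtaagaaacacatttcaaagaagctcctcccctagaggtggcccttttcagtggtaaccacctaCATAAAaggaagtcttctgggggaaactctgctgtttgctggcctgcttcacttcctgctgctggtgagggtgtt
Gda, chr19:21472662-21472911, minus strand: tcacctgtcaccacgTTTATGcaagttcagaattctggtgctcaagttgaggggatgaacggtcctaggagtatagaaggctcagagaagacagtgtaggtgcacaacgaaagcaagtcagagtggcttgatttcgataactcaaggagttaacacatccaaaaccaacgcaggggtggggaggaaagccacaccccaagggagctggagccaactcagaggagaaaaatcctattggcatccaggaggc

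The 4 motifs of intestinal transcription factors searched on both strands of the promoters of the 9 matched genes were CAAAGTCCA for HNF4, an HNF1 motif, AGATAA for GATA and TTTATG for CDX. None overlapped another. *Slc28a2* held AGATAA starting at base -165 and the reverse complement of the CDX letters, CATAAA, starting at base -75. *Gda* held TTTATG at base -235, and the *Ada* promoter held none of the 4. The HNF4 letters occurred in 0.384% of 32851 mouse promoters of this length, the HNF1 motif in 0.00913%, the GATA letters in 9.99% and the CDX letters in 10.8%. The other 6 matched members (*Nt5e*, *Slc28a1*, *Slc28a3*, *Pnp*, *Enpp3* and *Entpd8*) held no match in this window.

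Libraries held 7458616 to 23063124 counts on genes. Mitochondrial genes took 32.3% to 77.9% of these in positive and 61.2% to 80.7% in negative libraries. *Guca2a* followed the sort in every region, from 153 ± 50.7 CPM (counts scaled to library size; mean ± SD, n = 3 libraries) in positive against 24.5 ± 3.11 in negative cells of the jejunum to 611 ± 95.6 against 94.7 ± 25.5 in the colon. Every level below is in CPM after TMM normalisation, and each fold change and its p-value, adjusted by Benjamini-Hochberg over 15044 genes with a threshold of 0.05, come from the quasi-likelihood fit in edgeR. The 7 goblet cell markers were higher in positive cells of each region (6 of them in the colon with RLE factors or library size alone), with a summed level of 52109 to 58895 CPM per library in positive cells of the duodenum against 1800 to 4633 CPM in those of the jejunum. Of the 10 enterocyte markers, 1 was higher and 2 lower in positive cells of the duodenum, 9 were higher in the jejunum, 10 in ileum and 4 in colon libraries. With library size alone as scaling these counts were 2 higher and 0 lower in the duodenum, 9 higher in ileum and 2 in colon libraries. The colon count was also 2 with RLE factors, and without the ileum libraries numbered 1 the ileum count was 9 and 1 was lower in the duodenum. The summed enterocyte markers were at 1306 to 2359 CPM in positive duodenal and 14213 to 16299 CPM in positive jejunal libraries. The 5 Paneth cell markers rose with Venus in the duodenum, jejunum and ileum, and the proliferative markers fell, 5 of 5 in the jejunum and ileum and 3 of 5 in the duodenum and colon (none in the duodenum with library size alone). Of the 8 villus tip markers, 4 rose with Venus in duodenal, 7 in jejunal, 7 in ileal and 2 in colon libraries, with *Pkib* lower in the duodenum and jejunum. Of the 5 colonocyte markers, 4 were higher in positive cells of the colon, with a summed level of 1619 to 1781 CPM per library against 294 to 440.1 CPM in negative ones. In the ileum 3 were higher (2 without the ileum libraries numbered 1). In the jejunum 1 was higher and 1 lower (2 higher without those libraries), and in the duodenum 2 were lower (none with library size alone). By region, 8.88% to 18.3% of all genes were called higher and 3.80% to 25.6% lower, and the marker counts stand against these shares. The 1 enterocyte marker higher in the duodenum and the colonocyte counts in the jejunum lie near them. The part of these markers in the results below was not tested. *Ada* and *Nt5e* are also used by lymphocytes. *Ptprc*, which encodes CD45, was at 0 to 4.38 CPM over the 24 libraries, and the 7 immune markers other than *Lyz2* summed to 0.303 to 18.6 CPM. *Lyz2*, a macrophage gene and close relative of the Paneth cell gene *Lyz1*, was at 10.7, 29.04 and 8.99 CPM in positive against 0.841, 0 and 0 CPM in negative duodenum libraries (edgeR adjusted p = 0.000823). It was also called higher in positive ileum libraries (4.46, 1.501 and 3.23 against 0.0824, 0.141 and 0.720 CPM, edgeR adjusted p = 0.0130), though not without those numbered 1, and was not called in the jejunum or colon. Of the 5 tested stromal and endothelial markers, 3 were lower in positive ileum libraries (none without the ileum libraries numbered 1) and none was called elsewhere by edgeR, with 2 lower in the duodenum and 1 in the colon at an unadjusted p under 0.05. In such bulk libraries, fewer cells of a type and less RNA per cell cannot be told apart.

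Both ileum libraries numbered 1 stood apart from the other two of their group. The positive one held *Ada* at 1.399 CPM against 122 and 75.9 CPM, *Nt5e* at 0.377 against 14.4 and 39.0 CPM, and *Slc28a2* at 2.04 against 109 and 67.3 CPM. *Gda* was at 102 CPM there against 389 and 293 CPM, and *Xdh* at 128 CPM against 289 and 219 CPM. *Guca2a* was at 221 CPM there against 160 and 191 CPM, and the brush border gene *Vil1* at 883 CPM against 1375 and 1317 CPM. Genes outside the list differed too, since the transcription factor gene *Creb3l3* was at 6.08 CPM against 50.7 and 86.7 CPM. The colonocyte gene *Car1*, which encodes carbonic anhydrase 1, was at 55.9 CPM there against 2.34 and 0.514 CPM, and at 1107 to 1346 CPM in positive colon libraries. In the negative ileum library numbered 1, *Ada* was at 0.660 CPM against 6.10 and 6.15 CPM, and *Car1* at 19.3 CPM against 1.48 and 0.332 CPM. *Car1* was picked from 5 colonocyte markers after its values were seen. Another of these markers, *Aqp8*, an aquaporin gene, held 59, 0 and 0 counts in the positive and 4, 0 and 0 counts in the negative ileum libraries, so that it was highest in the same libraries. Those other than *Car1*, *Aqp8* included, summed to 69.1 CPM in the positive library numbered 1 against 90.3 and 83.0 CPM, and to 22.1 CPM in the negative one against 24.1 and 21.6 CPM. These libraries were kept, and an ileum result of the 10 genes is also given without both of them where that changed its call. The numbers follow the order of the accessions, and the labels do not say which libraries share a mouse.

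**Figure D1:**
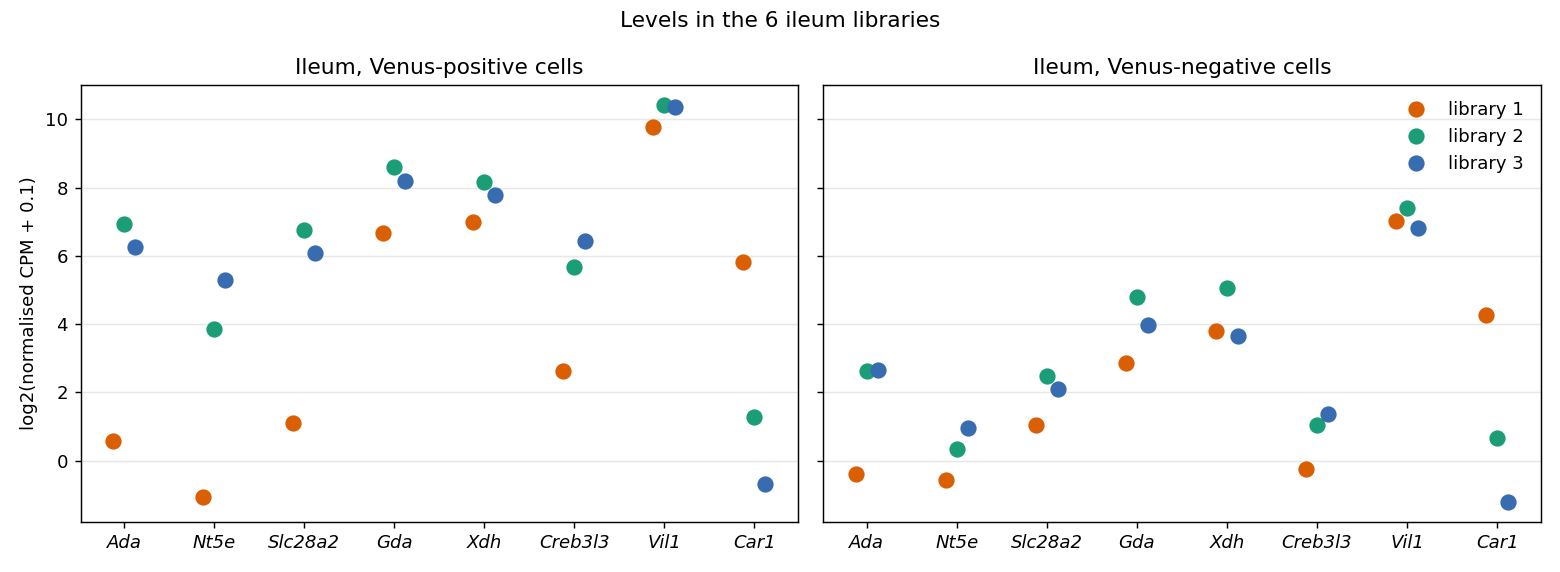
Levels in the 6 ileum libraries, as log2(normalised CPM + 0.1), with 1 point per library and the positive cells in the left and negative cells in the right panel. In the positive library numbered 1, *Ada*, *Nt5e* and *Slc28a2* lay at 1.399, 0.377 and 2.04 CPM, far under the other 2 libraries, *Vil1* lay at 883 CPM and close to them, and *Car1* lay above them at 55.9 CPM.

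In the jejunum, 8 of the 10 genes were higher in positive cells, 1 was lower and *Pnp* did not pass the test. The median log2 fold change of the 10 was 3.41, against -0.28 over all genes tested, of which 18.3% were higher and 25.6% lower. The list holds villus tip genes and was chosen with earlier results known. Counts set against such shares therefore describe the 10 genes and are no test of the pathway. In the ileum the counts were the same, 8 higher and 1 lower, with a median of 2.95 against -0.27 and a background of 17.9% higher and 20.6% lower. Without the 2 ileum libraries numbered 1, 7 genes passed, all higher, and *Enpp3*, *Entpd8*, *Gda* and *Xdh* were among them, at log2 fold changes of 2.46, 1.89, 4.17 and 3.67. In the duodenum, 2 genes were higher and 1 lower, with a median of 0.78 against -0.16 and a background of 8.88% higher and 8.08% lower. In the colon, 3 genes were higher and none lower (edgeR; at an unadjusted p under 0.05 also 3 and 0, and by DESeq2 3 and 0), with a median of -0.13 against 0.00 and a background of 9.31% higher and 3.80% lower.

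**Figure D2:**
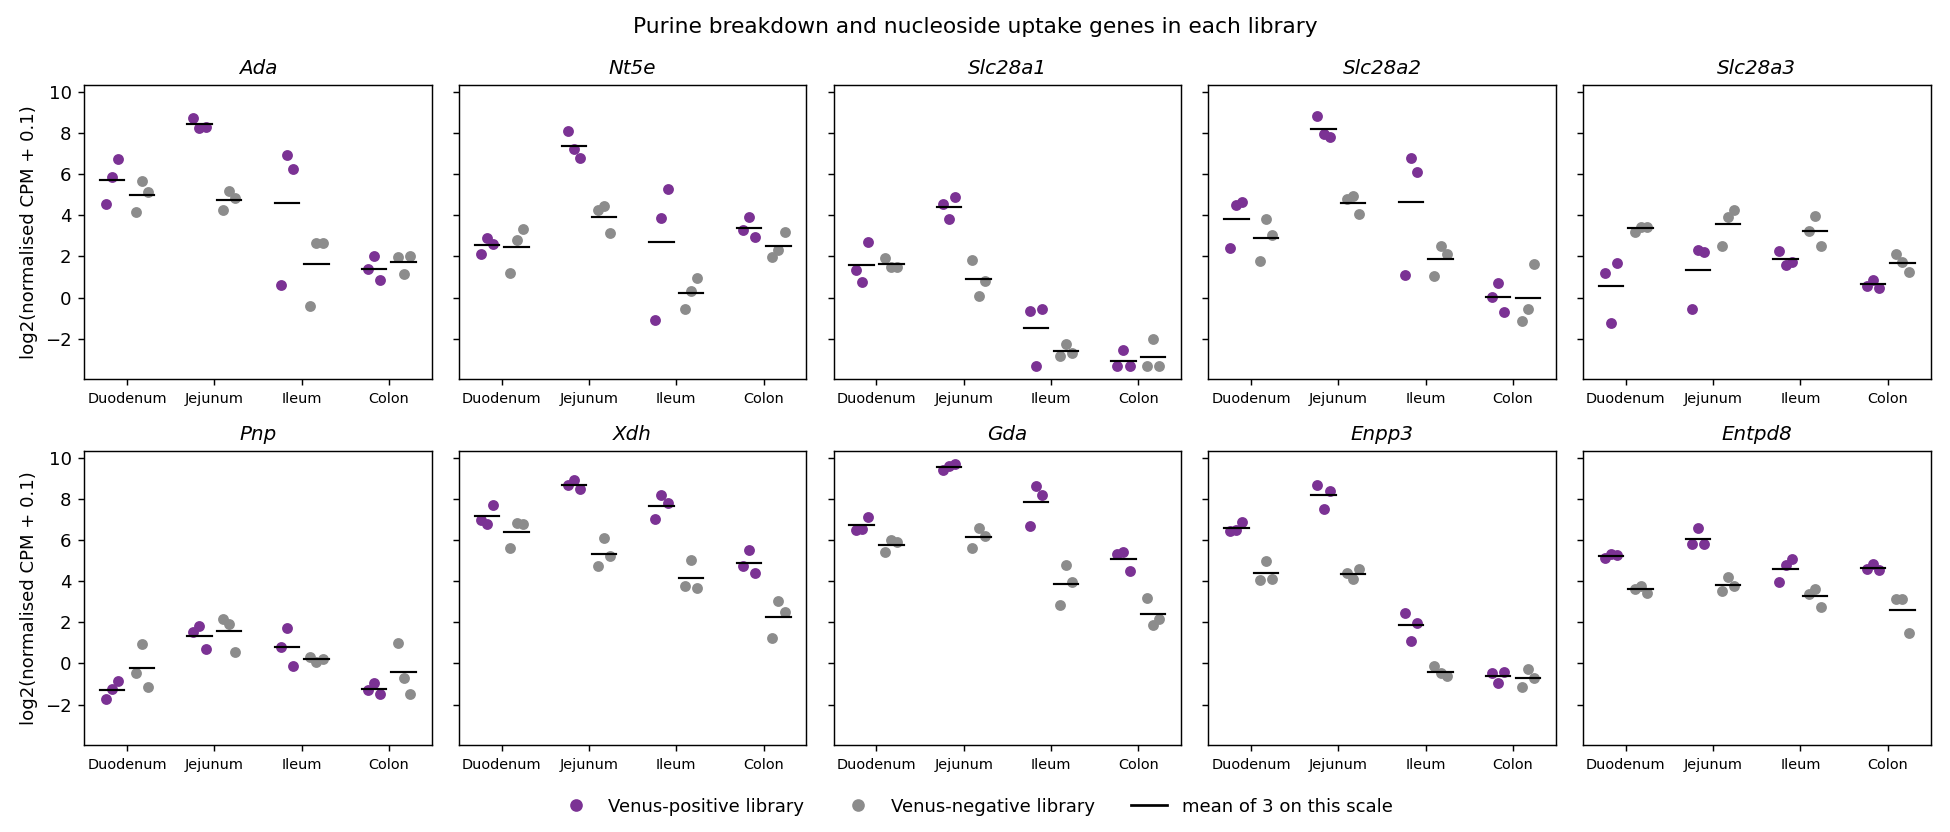
Levels of the 10 genes in each of the 24 libraries, as log2(normalised CPM + 0.1), by region, with purple points for positive and grey points for negative libraries and bars for the mean of 3 libraries on that scale. The positive jejunum libraries stand highest for *Ada* (298 to 417 CPM), *Gda* (683 to 816 CPM), *Xdh* (349 to 485 CPM) and *Slc28a2* (219 to 457 CPM), while *Slc28a3* lies lower in positive than negative cells of the small intestine.

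Of the ectonucleotidases, *Enpp3* and *Entpd8* passed in the duodenum as well as in the jejunum and ileum. *Enpp3* (chr10:24772406-24842823, minus strand) encodes a surface phosphodiesterase that splits nucleoside triphosphates such as ATP to the monophosphate. In the jejunum, *Enpp3* was at 410, 179 and 331 CPM in positive and 21.1, 16.9 and 23.8 CPM in negative cells, and in the duodenum at 86.4, 89.9 and 115 CPM against 16.3, 31.7 and 17.1 CPM. The groups did not overlap in either region. The difference was 14.9-fold in the jejunum (log2 fold change 3.90, SE 0.36, edgeR adjusted p = 1.73e-08) and 4.48-fold in the duodenum (2.16, SE 0.33, adjusted p = 2.61e-05). *Enpp3* was lower further along the gut. In the ileum its positive libraries were at 3.77 ± 1.70 CPM and its negative ones at 0.671 ± 0.139 CPM (5.54-fold, edgeR adjusted p = 1.02e-05), and at 0.562 ± 0.120 against 0.534 ± 0.187 CPM in the colon, where both groups held 3 to 10 counts per library.

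*Entpd8* (chr2:25080304-25085716, plus strand), whose product hydrolyses ATP and ADP at the cell surface, was the 1 gene of the list higher in positive cells of all 4 regions. Its level was 37.4 ± 2.48 CPM in positive against 12.2 ± 1.47 in negative cells of the duodenum, 68.4 ± 23.2 against 14.3 ± 3.63 for jejunum, 25.6 ± 9.35 against 9.76 ± 2.79 for ileum and 24.99 ± 2.84 against 6.70 ± 3.45 for colon. The lowest positive library lay above the highest negative one in each region. The differences were 3.06-fold, 4.77-fold, 2.61-fold and 3.74-fold in that order, with edgeR adjusted p of 0.00173, 7.58e-06, 0.00201 and 0.000493.

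*Nt5e* (chr9:88327197-88372092, plus strand) encodes CD73, which converts AMP to adenosine. It was at 272, 150 and 108 CPM in positive against 19.0, 21.4 and 8.52 CPM in negative cells of the jejunum, with no overlap and a 10.8-fold difference (log2 fold change 3.43, SE 0.73, edgeR adjusted p = 0.000308). In the duodenum it was at 5.85 ± 1.504 against 6.38 ± 3.98 CPM, with overlapping groups (log2 fold change -0.12, 95% interval -1.57 to 1.33). In the ileum the log2 fold change of *Nt5e* was 3.92 (SE 0.78, edgeR adjusted p = 0.000206) and 4.37 without the libraries numbered 1 (adjusted p = 6.91e-06). With them the groups overlapped, since the positive library numbered 1 lay under every negative library. Without the positive library numbered 3 the value was 2.64 (adjusted p = 0.00597). In the colon, *Nt5e* was at 9.73, 15.1 and 7.61 CPM against 3.83, 4.83 and 9.09 CPM, and the difference did not pass (log2 fold change 0.86, 95% interval -0.57 to 2.29).

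*Ada*, the adenosine deaminase gene, was the most abundant of the 10 per base of exon in positive cells of the jejunum. It was at 417, 298 and 315 CPM there against 18.8, 35.5 and 28.2 CPM in negative cells, 12.5-fold higher (log2 fold change 3.64, SE 0.79, edgeR adjusted p = 0.000441). In the ileum the log2 fold change of *Ada* was 3.95 (SE 0.82, edgeR adjusted p = 0.000302) and 4.21 without the libraries numbered 1 (adjusted p = 2.44e-06), and with all libraries kept the positive library numbered 1 lay within the negative range. Without the positive library numbered 2 the value was 3.16 (adjusted p = 0.00280). In the duodenum, *Ada* was at 23.2, 57.4 and 106 CPM against 17.7, 50.7 and 35.1 CPM, with overlapping groups and no call (log2 fold change 0.85, 95% interval -0.63 to 2.34, and 0.22 without the positive library numbered 3), although it passed without a filter on low counts (edgeR adjusted p = 0.0447). In the colon both groups were low, at 2.68 ± 1.12 and 3.29 ± 1.01 CPM.

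*Pnp* (chr14:50931082-50965237, plus strand) encodes purine nucleoside phosphorylase, and its level could not be read well. Libraries held 2 to 61 counts of it. Of its 50-base stretches, 3982 in all, 22.05% also occurred in another gene. Its near-identical neighbour *Pnp2* shared 438 (11%) and the overlapping gene *Gm49342* 669 (16.8%). Reads that fit several genes were left out of the counts. In the jejunum *Pnp* was at 2.58 ± 0.956 CPM in positive and 3.17 ± 1.58 CPM in negative libraries, and it passed in none of the 4 regions by edgeR, DESeq2 or at an unadjusted p under 0.05. *Pnp2* was more abundant and moved with the sort in opposite directions by region. It was at 7.67 ± 3.67 CPM in positive against 19.4 ± 1.95 in negative cells of the duodenum (log2 fold change -1.34, edgeR adjusted p = 0.00893, a call lost with library size alone), and at 33.3 ± 4.39 against 18.4 ± 3.52 CPM in the jejunum (0.86, adjusted p = 0.0404). In the ileum *Pnp2* was at 23.1 ± 5.79 against 9.52 ± 2.45 CPM (1.28, edgeR adjusted p = 0.00403). With both genes summed, which was tried after the counts had been seen, the log2 fold change of *Pnp* was -1.35 in the duodenum (adjusted p = 0.00829), 0.74 for jejunum (0.0766), 1.24 for ileum (0.00493) and -0.33 for colon (0.622).

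The genes of the last steps behaved alike. *Gda*, the guanine deaminase gene, was at 683, 758 and 816 CPM in positive against 48.7, 95.2 and 73.0 CPM in negative cells of the jejunum, and *Xdh* (chr17:73883895-73950196, minus strand), the xanthine oxidoreductase gene, at 410, 485 and 349 CPM against 26.4, 67.2 and 36.9 CPM. The differences were 10.4-fold for *Gda* (log2 fold change 3.38, SE 0.46, edgeR adjusted p = 1.15e-06) and 9.53-fold for *Xdh* (3.25, SE 0.47, adjusted p = 2.33e-06). In the ileum, where no positive library overlapped a negative one, they were 15.6-fold for *Gda* (edgeR adjusted p = 2.33e-07) and 10.7-fold for *Xdh* (1.71e-06). Both also passed in the colon, where *Gda* was at 40.3, 42.1 and 22.7 CPM against 9.10, 3.51 and 4.33 CPM (6.29-fold, edgeR adjusted p = 0.000205), and *Xdh* at 26.9, 46.0 and 21.2 CPM against 2.28, 8.05 and 5.52 CPM (5.83-fold, adjusted p = 0.000385). In the duodenum, *Gda* was at 106 ± 26.2 against 55.4 ± 11.1 CPM and *Xdh* at 147 ± 51.1 against 90.3 ± 35.996 CPM. Neither passed there, with a log2 fold change of 0.94 for *Gda* (95% interval 0.07 to 1.80, edgeR adjusted p = 0.126) and 0.70 for *Xdh* (-0.18 to 1.58, adjusted p = 0.275). *Gda* did pass there with library size alone as scaling (edgeR adjusted p = 0.0183), without a filter on low counts (0.0213) and with the duodenum libraries fitted alone (0.00748).

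The 3 concentrative transporters did not move in 1 direction. *Slc28a2*, whose product prefers purine nucleosides, was at 457, 246 and 219 CPM in positive against 27.3, 30.0 and 16.4 CPM in negative cells of the jejunum (12.5-fold, edgeR adjusted p = 0.000332). In the ileum the log2 fold change of *Slc28a2* was 3.93 (SE 0.80, adjusted p = 0.000239) and 4.37 without the libraries numbered 1 (2.32e-05 by edgeR), and 3.16 without the positive library numbered 2 (0.00231). In the duodenum *Slc28a2* was at 17.4 ± 10.7 against 8.50 ± 5.43 CPM with overlapping groups, where it passed only without a filter on low counts (edgeR adjusted p = 0.0140), and in the colon at 0.9996 ± 0.524 against 1.31 ± 1.45 CPM. Of the 50-base stretches of *Slc28a2*, 35.4% also occurred in its near-identical copy *Gm14085*, which was counted at 38.6, 24.2 and 0.947 CPM in positive jejunum libraries. With both summed, the log2 fold change was 3.67 in the jejunum and 4.01 in the ileum.

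*Slc28a1* (chr7:81114799-81170416, plus strand), whose product prefers pyrimidine nucleosides, was at 23.1, 13.9 and 29.3 CPM in positive against 3.41, 0.964 and 1.63 CPM in negative cells of the jejunum (11.1-fold, edgeR adjusted p = 9.63e-05). Its log2 fold change there was 3.47, and 4.15 without the negative library numbered 1. It was low in the duodenum, at 3.44 ± 2.52 against 3.01 ± 0.609 CPM. In the ileum it held 10, 0 and 8 counts in positive and 1, 3 and 1 counts in negative libraries. That is a ratio of 5.21, with an exact 95% interval of 1.86 to 18.0 that covers counting error only. Its call in the ileum (edgeR adjusted p = 0.0498) was lost when any of 5 of the 6 libraries was left out, with an adjusted p of up to 0.177, and it was 0.253 without both libraries numbered 1. The colon libraries held 0 to 2 counts of *Slc28a1*, under the floor of 3 counts, and give no fold.

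*Slc28a3* (chr13:58545399-58610877, minus strand), whose product carries both purine and pyrimidine nucleosides, was lower in positive cells of the small intestine. It was at 2.15, 0.328 and 3.15 CPM in positive against 9.11, 10.6 and 10.8 CPM in negative cells of the duodenum, with no overlap (5.53-fold lower, edgeR adjusted p = 0.00617), at a log2 fold change of -2.47, or -3.08 without the positive library numbered 3. In the jejunum it was at 0.575, 4.79 and 4.59 CPM against 5.61, 14.9 and 19.1 CPM, again without overlap (3.98-fold lower, adjusted p = 0.00641 by edgeR). For *Slc28a3*, the positive libraries held 21, 4 and 28 counts in the duodenum and 9, 86 and 63 counts in the jejunum. In the ileum it was at 4.73, 2.88 and 3.16 CPM against 9.40, 15.3 and 5.59 CPM (2.80-fold lower, edgeR adjusted p = 0.0400). The ileum call was lost in 4 of 6 fits that left out 1 library (adjusted p up to 0.196) and without both libraries numbered 1 (adjusted p = 0.0964). In the colon the log2 fold change of *Slc28a3* was -1.14 (95% interval -2.39 to 0.12). The 6 enteroendocrine markers were lower in positive cells of the duodenum and jejunum, 5 of them in the ileum and 4 in the colon. They summed to 570 to 886 CPM in negative and 12.6 to 27.97 CPM in positive duodenum libraries. The 3 tuft cell markers were also lower in positive cells of all 3 regions of the small intestine (2 of them in the duodenum with library size alone). Summed, they were at 17.3 to 27.8 CPM in negative and 2.56 to 5.41 CPM in positive duodenum libraries. In the colon no tuft marker was called by edgeR (2 were lower at an unadjusted p under 0.05), at 14.6 to 41.3 CPM summed in negative and 8.72 to 14.96 CPM in positive libraries. The part of both marker lists in the *Slc28a3* difference was not tested.

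**Figure D3:**
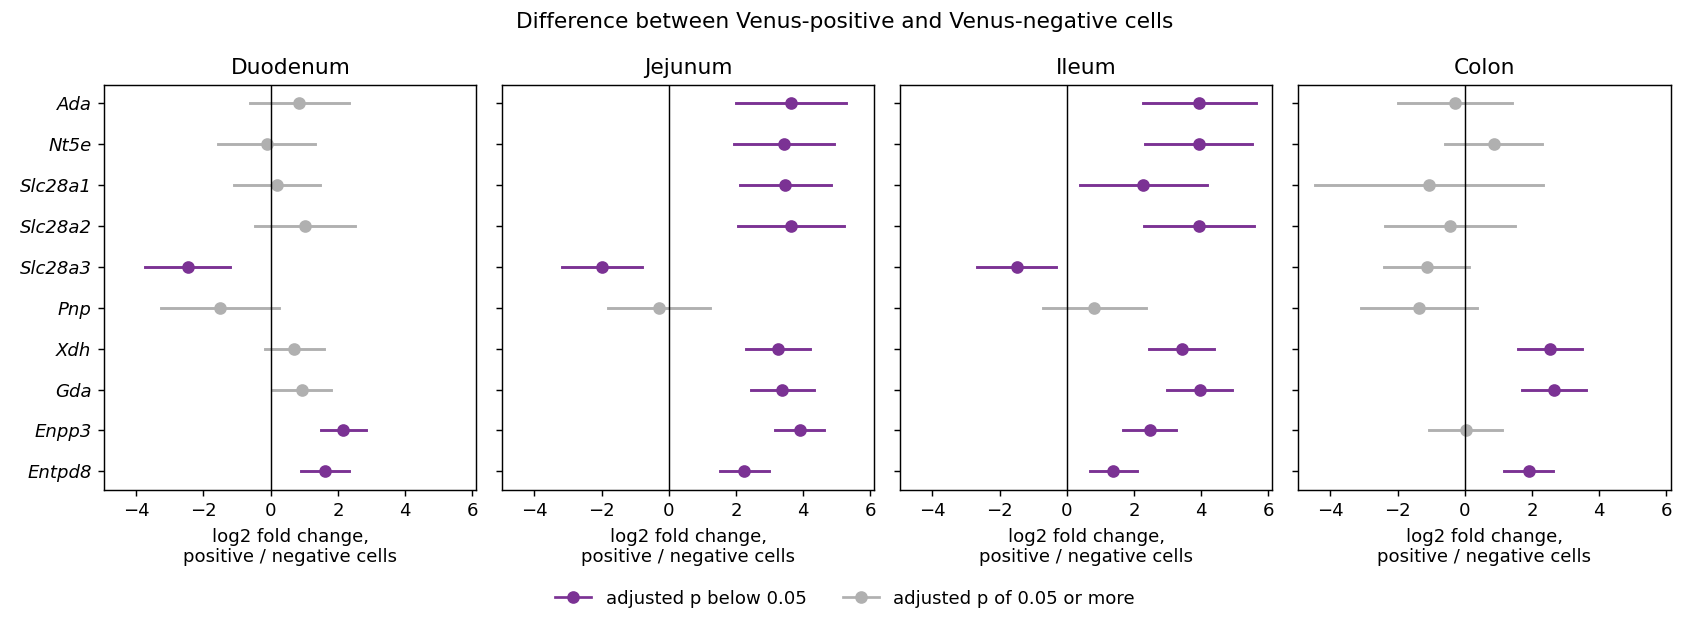
Log2 fold change of positive over negative cells for the 10 genes in each region, with 95% intervals from edgeR's quasi-likelihood fit, in purple where the adjusted p was below 0.05. Of the called genes in the jejunum and ileum, 8 lie to the right of 0 and *Slc28a3* to the left, while in the duodenum *Enpp3* (2.16) and *Entpd8* (1.62) and in the colon *Gda* (2.65), *Xdh* (2.54) and *Entpd8* (1.90) are the called genes to the right.

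Per kilobase of exon in positive cells of the jejunum, the order of mean levels was *Ada* (172 CPM per kb), *Gda* (121), *Slc28a2* (73.0), *Enpp3* (50.9), *Xdh* (45.2), *Entpd8* (25.2), *Nt5e* (20.5), *Slc28a1* (7.49), *Pnp* (0.648) and *Slc28a3* (0.420). Library ranges of these levels overlapped between *Slc28a2* and *Enpp3*, *Enpp3* and *Xdh*, *Entpd8* and *Nt5e*, and *Pnp* and *Slc28a3*, and no others between neighbours in that order. In positive cells of the duodenum the highest mean levels were those of *Ada* (31.2 CPM per kb), *Gda* (17.03), *Enpp3* (16.1), *Xdh* (16.0) and *Entpd8* (13.8), but the library ranges of these 5 genes overlapped each other, and *Ada* was the lowest of them in the library numbered 1. In the colon *Entpd8* (9.21) was above *Gda* (5.62) and *Xdh* (3.42) with no overlap, while the ranges of *Gda* and *Xdh* overlapped.

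Whether the gap between the sorts changed along the gut was tested next. For 6 of the 10 genes it was smaller in the duodenum than the mean of jejunum and ileum, against a background of 17.5% of all genes that differed in either direction. The largest such gap was that of *Nt5e*, with a log2 difference between the fold changes of -3.80 (SE 0.89, edgeR adjusted p = 0.00330). It was followed by *Ada* (-2.94, adjusted p = 0.0236), *Slc28a2* (-2.76, 0.0318), *Gda* (-2.73, 0.000539), *Slc28a1* (-2.70, 0.0247) and *Xdh* (-2.64, 0.000880). *Enpp3* (-1.02, edgeR adjusted p = 0.0799) and *Entpd8* (-0.20, 95% interval -1.05 to 0.65) did not pass, and neither did *Slc28a3* (-0.73, -2.20 to 0.74). Without the positive duodenum library numbered 1 or 2, the calls of *Ada*, *Slc28a1* and *Slc28a2* were lost, and 3 genes passed. Other single libraries cost *Ada* its call (the negative duodenum library numbered 2), *Slc28a1* (the negative duodenum library numbered 1) and *Slc28a2* (the negative duodenum libraries numbered 2 and 3 and the positive ileum library numbered 2), with adjusted p up to 0.0779, 0.0801 and 0.133. By DESeq2, 5 genes passed, without *Slc28a2* (adjusted p = 0.0551). Without the positive duodenum library numbered 3 the values of *Ada* and *Slc28a1* were -3.57 and -3.47. Without both ileum libraries numbered 1, *Slc28a1* was lost (-2.49, adjusted p = 0.0575). The calls of *Nt5e*, *Gda* and *Xdh* held in every fit that left out 1 library, with *Nt5e* at -3.16 without the positive ileum library numbered 3.

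For 4 genes the difference was smaller in the colon than in the mean of jejunum and ileum, with 9.99% of all genes as background. These were *Slc28a2* (-4.22, SE 1.10, edgeR adjusted p = 0.0140), *Ada* (-4.08, SE 1.005, adjusted p = 0.00999), *Enpp3* (-3.16, SE 0.60, 0.00146) and *Nt5e* (-2.82, SE 0.87, 0.0365). The call of *Nt5e* was lost in 7 fits that left out 1 library (adjusted p up to 0.109), among them that without the positive ileum library numbered 3 (-2.17). That of *Slc28a2* was lost without the colon library numbered 3 of either sort (-2.78 and adjusted p = 0.228 without the negative one), and its value was -4.81 without the positive colon library numbered 2. *Entpd8* did not differ detectably (0.08, 95% interval -0.77 to 0.94), nor did *Gda* (-1.02, -2.11 to 0.08) or *Xdh* (-0.79, -1.90 to 0.32). Between jejunum and ileum none of the 10 differed by edgeR or DESeq2 (0.266% of all genes did, and at an unadjusted p under 0.05 *Enpp3* did, at 1.43 more in the jejunum).

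Compared directly, positive cells of the duodenum had less of 9 of the 10 genes than those of the jejunum, against 33.2% of all genes that differed. The log2 fold changes ran from -0.87 for *Entpd8* (edgeR adjusted p = 0.0463) to -4.91 for *Nt5e* (adjusted p = 1.82e-05), and *Slc28a3* did not pass (-0.85, 95% interval -2.11 to 0.40). The call of *Entpd8* was lost in 4 fits that left out 1 library, those without any 1 of the positive duodenum libraries or without the positive jejunum library numbered 2 (adjusted p = 0.320). With every library kept it was also lost with library size alone (edgeR adjusted p = 0.120), without a filter on low counts (0.0603), with at least 10 counts in every library (0.0866) and over protein-coding genes outside the mitochondria (0.0545). *Ada* missed the threshold without the positive duodenum library numbered 1 (adjusted p = 0.0635) and *Xdh* without that numbered 2 (0.0502). Without that numbered 3, *Ada* was at -3.09 and *Slc28a1* at -3.47, against -2.46 and -2.69 with all libraries. From jejunum to ileum, 5 of 10 were higher in the jejunum in positive cells, against 5.15% of all genes. *Enpp3* was 81.0-fold higher (edgeR adjusted p = 6.40e-12), *Slc28a1* 58.2-fold (4.00e-06), *Nt5e* 9.89-fold (0.00380), *Gda* 2.87-fold (0.0307) and *Entpd8* 2.68-fold (0.00932). The size of the *Slc28a1* fold is loose, since the positive ileum libraries held 10, 0 and 8 counts of it. Without the ileum libraries numbered 1, *Gda* and *Entpd8* did not pass (adjusted p 0.138 and 0.104), and without the positive jejunum library numbered 2 they did not either, which left 3 genes. The call of *Gda* was lost in 4 fits that left out 1 library (the positive jejunum library numbered 1 or 2 or the positive ileum library numbered 1 or 3, with an edgeR adjusted p of up to 0.183) and with library size alone (0.0610). That of *Entpd8* was lost in 2, without the positive ileum library numbered 1 or the positive jejunum library numbered 2 (adjusted p up to 0.0927). The call of *Nt5e* was lost with the 2 groups fitted alone (adjusted p = 0.0660), and so was that of *Gda* (0.0603). The log2 fold change of *Nt5e* was 3.31 with all libraries, 4.58 without the positive ileum library numbered 3 and 2.70 without both ileum libraries numbered 1. That of *Slc28a1* was 5.86, and 5.28 without the positive ileum library numbered 2. *Ada* and *Slc28a2* just missed the threshold with all libraries, at log2 fold changes of 2.37 (edgeR adjusted p = 0.0633) and 2.37 (0.0543). Without both ileum libraries numbered 1 *Ada* passed (1.78, edgeR adjusted p = 0.0315) and *Slc28a2* did not (1.79, 0.108).

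Positive cells of the ileum had more of 7 of the 10 genes than those of the colon, against 21.7% of all genes. *Slc28a2* was 59.2-fold higher (edgeR adjusted p = 1.75e-05), *Ada* 24.8-fold (0.000189), *Gda* 7.47-fold (1.73e-05), *Xdh* 6.75-fold (4.28e-05), *Enpp3* 6.62-fold (1.52e-05) and *Pnp* 5.56-fold (0.0315). *Slc28a1* was called as well on 10, 0 and 8 counts against 0, 1 and 0 counts, and that call was lost in 4 fits that left out 1 library, as was that of *Pnp* in 4 (adjusted p up to 0.180) and without a filter on low counts (0.0694). The log2 fold changes of *Slc28a2* and *Ada* were 5.89 and 4.63 with all libraries, 6.58 and 5.33 without both ileum libraries numbered 1, and 5.11 and 3.85 without the positive ileum library numbered 2. Without that library *Pnp* was at 1.86 against 2.48. *Slc28a1* did not pass without both ileum libraries numbered 1 (adjusted p = 0.0934), and no fold is given for it, since its colon libraries lay under the floor of 3 counts. *Entpd8* was level (log2 fold change 0.03, 95% interval -0.66 to 0.72), and *Nt5e* did not pass (0.72, -0.66 to 2.11), except without both ileum libraries numbered 1 (1.42, edgeR adjusted p = 0.0387).

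In negative cells, none of the 10 genes differed between duodenum and jejunum by edgeR or DESeq2, against 0.725% of all genes (2 passed without a filter on low counts), although 3 had an unadjusted p under 0.05 (*Slc28a2*, *Pnp* and *Xdh*). Between jejunum and ileum, 4 of the 10 were higher in the jejunum, against 2.11% of all genes: *Enpp3* (30.1-fold, edgeR adjusted p = 1.12e-09), *Nt5e* (13.9-fold, 0.00397), *Gda* (4.30-fold, 0.00439) and *Slc28a1*, whose ileum libraries held 1 to 3 counts. With library size alone the log2 fold change of *Enpp3* was 4.29 against 4.91 and that of *Nt5e* 3.16 against 3.79. The call of *Gda* was lost without the negative ileum library numbered 1 (edgeR adjusted p = 0.0532), but not when the positive ileum library numbered 1 was left out as well (0.0264). Between ileum and colon, *Xdh* (3.67-fold, edgeR adjusted p = 0.0102) and *Gda* (3.02-fold, 0.0307) were higher in the ileum, against 5.24% of all genes. Neither passed without the negative ileum library numbered 2 (adjusted p 0.157 and 0.303) or with the 2 groups fitted alone (0.0639 and 0.155). The call of *Xdh* was also lost without the negative colon library numbered 1 (adjusted p = 0.0751). That of *Gda* was also lost without that numbered 2 or 3 (0.202 and 0.125), with RLE factors (0.0613), with at least 10 counts in every library (0.0543) and over protein-coding genes outside the mitochondria (0.0525). Without both ileum libraries numbered 1, *Ada* passed between jejunum and ileum (2.12, edgeR adjusted p = 0.0224) and *Nt5e* was lower in the ileum than in the colon (-2.12, 0.0333), while neither passed with all libraries. *Enpp3*, *Nt5e* and *Slc28a1* were thus higher in the jejunum than in the ileum in both sorts, also without both ileum libraries numbered 1.

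Other genes of purine and pyrimidine handling were followed in lists around the 10. Of 10 tested genes of de novo purine synthesis, 9 were lower in positive cells of the jejunum and 9 in those of the ileum, with medians of -2.63 and -2.62, where 25.6% and 20.6% of all genes were lower. In the colon 4 were lower (3 with library size alone), against 3.80% of all genes. In the duodenum, where 8.08% of all genes were lower, none was called by edgeR either way, with 4 lower at an unadjusted p under 0.05. *Ppat*, which encodes the first committed enzyme of the pathway, was at 0.410 ± 0.338 CPM in positive against 6.12 ± 2.43 in negative cells of the jejunum (log2 fold change -3.92, edgeR adjusted p = 8.70e-05). *Paics*, of a later step, was at 1.89 ± 1.398 against 23.5 ± 15.9 CPM in the ileum (-3.64, adjusted p = 9.22e-05). Of 5 salvage genes, 4 were lower in positive cells of the jejunum (3 with RLE factors, with library size alone or without the ileum libraries numbered 1), against the 25.6% of all genes. In the ileum 1 of 5 was lower, a share near the 20.6% of all genes there, and in the duodenum *Aprt* was, against 8.08% of all genes, though not with library size alone. Among them were *Dguok* in the jejunum (-1.85, edgeR adjusted p = 0.00382) and *Dck* in the ileum (-2.03, 0.00714), both kinases of deoxynucleosides. The proliferative markers were lower in the same comparisons, at 7.15 to 8.82 CPM summed in positive and 69.3 to 166 CPM in negative jejunum libraries, and their part was not tested.

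Of 8 tested other ectonucleotidases and ectophosphatases, 4 rose with Venus in the jejunum, 4 in the ileum, 3 in the colon (2 with RLE factors or library size alone) and none in the duodenum, and 1 was lower in each region. As for the lists that follow, these counts stand against the shares of all genes given above, 8.88% to 18.3% higher and 3.80% to 25.6% lower. The lower calls were not stable, since with library size alone none was lower in the duodenum, jejunum or colon, and without the ileum libraries numbered 1 none was lower in the ileum. *Alpi*, the intestinal alkaline phosphatase gene, was at 147 ± 76.5 against 7.40 ± 3.26 CPM in the ileum (log2 fold change 4.31, edgeR adjusted p = 1.82e-06). *Entpd3* had 0 counts in the positive and 7 to 19 counts in the negative duodenum libraries, at least 2.97-fold lower when set against the floor of 3 counts per library. Of 6 intracellular nucleotidases, 2 were higher and 3 lower in the jejunum, with *Nt5c3b* at -4.54 (edgeR adjusted p = 4.34e-07) and *Entpd7*, of intracellular vesicles, at 2.13 (2.00e-06). In the ileum 1 was higher and 2 lower (1 with library size alone or without the libraries numbered 1). In the duodenum 1 was higher and 1 lower, the latter call being lost with library size alone and without the ileum libraries numbered 1, and in the colon none passed by edgeR (2 lower at an unadjusted p under 0.05, and 1 lower with RLE factors). *Dpp4*, a brush border peptidase that anchors adenosine deaminase on human cells, was higher in positive cells of the jejunum (2.49) and ileum (3.34, edgeR adjusted p = 5.70e-08) but lower in those of the colon (-1.22, adjusted p = 0.0142). *Ampd3*, an AMP deaminase gene, was higher in the duodenum (2.81, edgeR adjusted p = 6.02e-06) and colon (1.31, 0.0171). The third called gene among the 4 tested of that list, *Adal*, was lower in the ileum (log2 fold change -1.54, edgeR adjusted p = 0.0471), a call lost with library size alone. Of the 5 tested genes of breakdown after the nucleoside, *Pnp2* was called as given above. Of the others, *Mtap* was lower in the jejunum (-3.61) and ileum (-3.48), and *Urah*, of urate breakdown, in the jejunum (-1.67, edgeR adjusted p = 0.0173, a call lost with library size alone).

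The equilibrative transporter gene *Slc29a1*, the 1 of 3 tested genes of its list that passed, was lower in positive cells of the jejunum (0.439 ± 0.327 against 4.90 ± 0.681 CPM, log2 fold change -3.45, edgeR adjusted p = 0.000217), ileum (-2.42, 0.00366) and colon (-1.99, 0.0333). Of 4 tested urate transporter genes, 3 rose with Venus in jejunum and ileum, 2 in the colon and 1 in the duodenum, none lower. *Abcg2*, which exports urate into the lumen, was at 253 ± 103 against 34.7 ± 11.1 CPM in the ileum (2.87, edgeR adjusted p = 1.51e-06), and *Slc17a4* passed in all 4 regions (2.21 in the colon, adjusted p = 6.75e-05). Of 5 tested genes of the molybdenum cofactor of xanthine oxidoreductase, 2 were higher and 1 lower in jejunum and ileum alike, and 1 was higher in the colon. Without the ileum libraries numbered 1, 3 were higher and 1 lower in the jejunum, and 2 were higher and 2 lower in the ileum. *Mocos*, which encodes the sulfurase that activates this cofactor, was higher in the jejunum (2.14), ileum (2.38) and colon (3.74, edgeR adjusted p = 4.06e-05). Of the genes of earlier steps, *Gphn* was lower in the jejunum (-1.96, edgeR adjusted p = 5.37e-05) and ileum (-1.70, 0.000280), while *Mocs2* was higher in both (1.097 and 1.31). Of 6 tested pyrimidine breakdown genes, 4 were higher in the jejunum, 4 in the ileum, 3 in the colon and 1 in the duodenum. *Upp1*, the uridine phosphorylase gene, had a log2 fold change of 3.71 in the ileum (edgeR adjusted p = 4.51e-05) and *Tymp*, the thymidine phosphorylase gene, was called higher in the colon on 7, 2 and 6 against 0, 1 and 0 counts (adjusted p = 0.0315), with no fold given since the negative libraries lay under the floor. Of the 2 adenosine receptor genes tested, *Adora1* held 0, 2 and 0 counts in positive and 11, 26 and 14 counts in negative jejunum libraries (edgeR adjusted p = 0.0236). The other, *Adora2b*, had a log2 fold change of 3.08 there and just missed the threshold (edgeR adjusted p = 0.0502), which it passed with RLE factors, with library size alone and without the ileum libraries numbered 1.

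**Figure D4:**
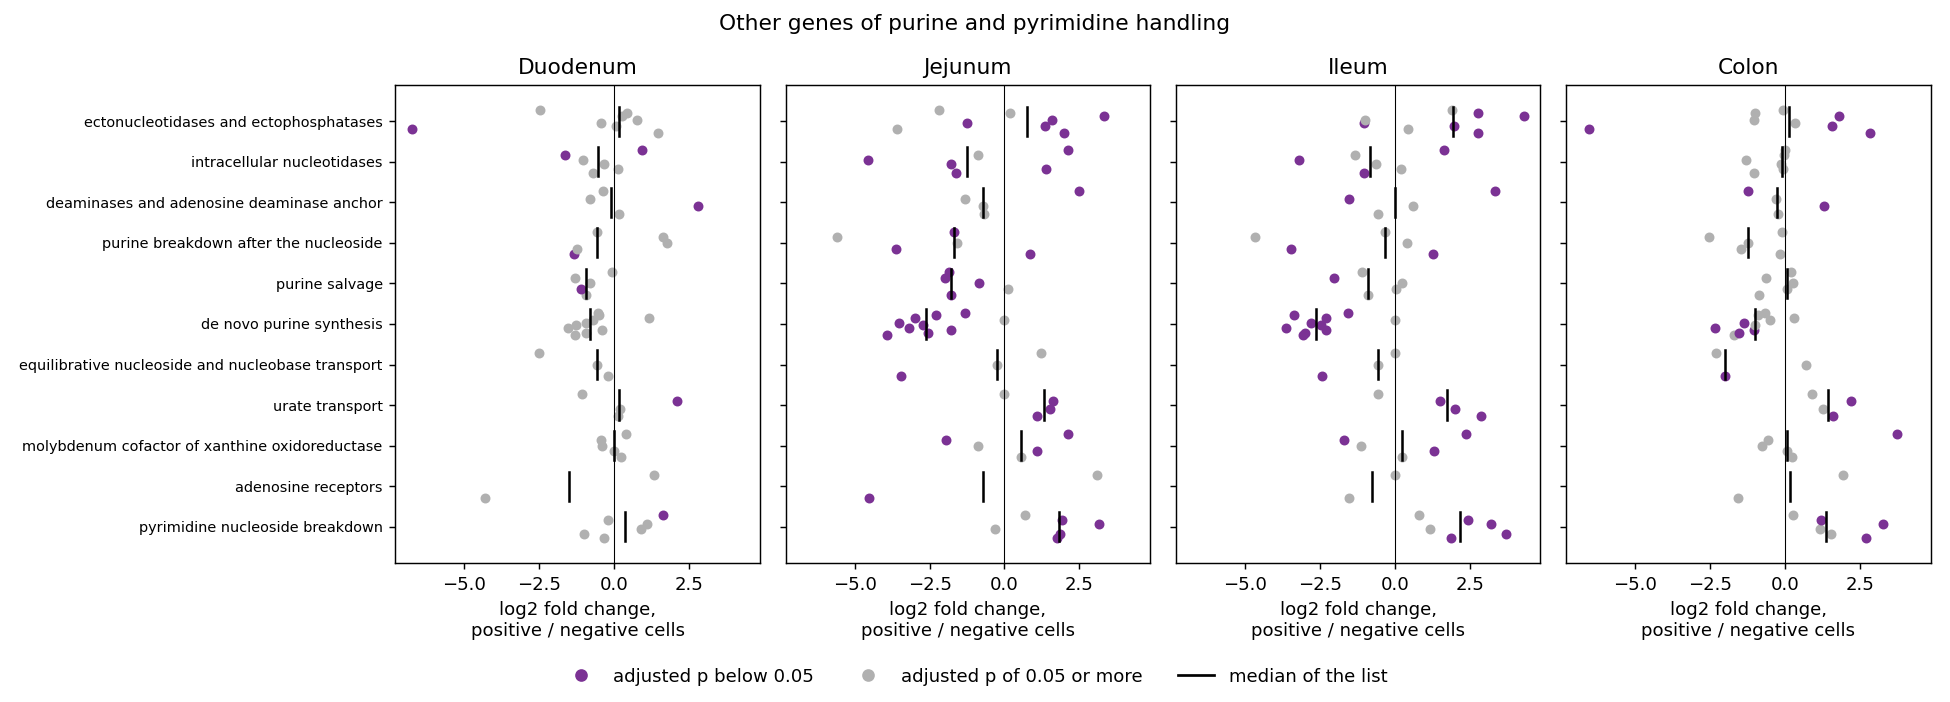
Log2 fold change of positive over negative cells for the tested genes of 11 lists of purine and pyrimidine handling, 1 point per gene, in purple where the edgeR adjusted p was below 0.05, with a bar at the median of the list. In the jejunum and ileum the called de novo synthesis genes, 9 of 10 in each, lie to the left (list medians -2.63 and -2.62) and the called urate transport genes, 3 of 4 in each, to the right (list medians 1.31 and 1.75).

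Across the 24 libraries, log2 CPM of *Slc28a1* and *Enpp3* had a Pearson r of 0.957, *Gda* and *Xdh* of 0.937, and *Ada* and *Slc28a2* of 0.925. These and the following values describe likeness over libraries that share groups and depth, with no test. Among 12499 protein-coding genes, the most like *Ada* were *Creb3l3* (0.938), *Slc28a2* and *Ube2l6* (0.902). Those most like *Slc28a2* were *Ada*, *Ace* (0.921) and *Gm11127* (0.913), and those most like *Nt5e* were *Sfn* (0.872), *Arl14* (0.865) and *Hif1a* (0.859). *Xdh* was closest to *Parp14* (0.974), *Ceacam18* (0.960) and *Btnl2* (0.955), and *Gda* to *Slc27a4* (0.973), *Btnl2* (0.968) and *H2-Q2* (0.963). *Enpp3* was closest to *Prrx1* (0.969), *Cyp2b10* (0.967) and *Apoa4* (0.965), and *Slc28a1* to *Enpp3*, *Cd36* (0.951) and *Cyp2b10* (0.949). *Entpd8* was closest to *Samd8* (0.938), *1810055G02Rik* (0.932) and *Sec31a* (0.926). *Slc28a3* and *Pnp* had weaker likeness, to *Tars2* (0.822), *Tatdn2* (0.799) and *Scg2* (0.792), and to *Mlxipl* (0.808), *Me2* (0.771) and *Ccdc50* (0.768). The r of *Slc28a3* with the other 9 ran from -0.39 with *Entpd8* to 0.36 with *Pnp*.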

How the data were processed

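RNA of sorted cells was sequenced from 24 libraries, 3 per region and sort. The authors aligned reads to GRCm38 with STAR (2.5.1 per the labels) and deposited raw counts of 53465 genes. The annotation and strand setting are not given in the sources used here. Reads outside genes, multimapping or ambiguous were left out. Names and positions came from GENCODE M21, and promoters from RefSeq (GRCm38.p6), which matched 9 of the 10 genes.

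Counts were analysed with edgeR 4.0.16 in R 4.3.3: filterByExpr (minimum count 10), TMM, a quasi-likelihood fit with 1 coefficient per group, Benjamini-Hochberg adjustment over 15044 genes and a threshold of 0.05. The floor was 3 counts per library (0.130 to 0.402 CPM). All 10 genes were named, plus per list the 2 genes with the largest called change, and the 3 most alike genes. *Guca2a*, *Pnp2*, *Gm14085*, *Vil1*, *Creb3l3*, *Car1*, *Aqp8*, *Lyz2*, *Mocs2*, *Adal*, *Pkib*, *Aprt* and *Adora2b* were added after values were seen. Members and lists were chosen with earlier results of these data known. Alternatives were DESeq2 1.42.0, RLE factors, library size alone, other filters, the i5 index as covariate, compared groups alone, nuclear protein-coding genes, stricter thresholds and leaving out each library. Replicate pairs differed beyond sampling noise.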

Additional observations from a re-analysis of the deposited data

Results flagged for a closer look

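The difference between positive and negative cells differed between regions for 10 gene and region pairs, by edgeR's test of that difference with adjustment over all genes. It was smaller in the duodenum than in the mean of jejunum and ileum for *Nt5e* (log2 difference -3.80, adjusted p = 0.00330), *Ada* (-2.94, 0.0236), *Slc28a2* (-2.76, 0.0318), *Gda* (-2.73, 0.000539), *Slc28a1* (-2.70, 0.0247) and *Xdh* (-2.64, 0.000880). It was smaller in the colon than in that mean for *Slc28a2* (-4.22, adjusted p = 0.0140), *Ada* (-4.08, 0.00999), *Enpp3* (-3.16, 0.00146) and *Nt5e* (-2.82, 0.0365). Leaving out 1 library cost a call in some fits for *Ada*, *Slc28a1* and *Slc28a2* in the duodenum contrast and for *Nt5e* and *Slc28a2* in the colon contrast, and by DESeq2 *Slc28a2* did not pass in the duodenum contrast (adjusted p = 0.0551). In both contrasts the jejunum and ileum libraries are shared, so that the 2 sets of values are not independent. The summed goblet markers were at 52109 to 58895 CPM in positive duodenum libraries and 1800 to 9468 CPM in positive jejunum and ileum libraries. In the same order, the summed Paneth markers were at 16454 to 45328 CPM and 1422 to 13916 CPM. The summed enterocyte markers were at 1306 to 2359 CPM and 5633 to 16299 CPM. The part of cell type makeup in these differences was not tested.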

How the results depend on the processing

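No paired analysis was run, because the labels name no mouse and numbers given in accession order were not used to pair libraries. Some values did follow the number. *Gm14085* was at 0 to 0.947 CPM in the libraries numbered 3, against 38.6 and 24.2 CPM in the other positive jejunum libraries. Whether libraries of 1 number share a mouse was not tested, and calls under a paired fit are not known. With every library kept, 540 of 565 alternative values over 77 gene results kept their direction and side of the threshold, and with 1 library left out 517 of 582 did. Without a filter on low counts, 6 of the 10 genes passed between sorts in the duodenum, and in negative cells 2 passed between duodenum and jejunum, 7 between jejunum and ileum and 5 between ileum and colon. Of the 15044 genes of the main filter, 16.5%, 1.56%, 2.97% and 6.13% were called in these comparisons of that fit. With at least 10 counts required in every library, only *Ada*, *Gda*, *Xdh* and *Entpd8* of the 10 genes were tested. Of these 4, 1, 4 and 4 passed between sorts from duodenum to ileum, so that all tested genes passed in the jejunum and ileum. The differences between sorts gave 3 for the duodenum and 1 for the colon. Along the gut, 3, 2 and 3 passed in positive cells. In negative cells 1 passed from jejunum to ileum and 1 from ileum to colon. At an adjusted p of 0.01, 3 passed for the duodenum and 2 for the colon difference between sorts, and 0 between ileum and colon in negative cells (2 at 0.05). For that last comparison, 1 passed with RLE factors, 4 with library size alone, 1 with protein-coding genes outside the mitochondrial genome and 1 with the compared groups alone. The compared groups alone gave 3 between jejunum and ileum in positive cells. The shares of all genes given in the text belong to the main fit at 0.05 and to the fit without a filter on low counts. No share was taken for the other fits and thresholds. The counts under them, also with 1 library left out or with the i5 index, therefore have no background beside them and show no gain or loss particular to these genes.

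With 1 library left out, the counts ran from 3 to 7 for the duodenum and from 2 to 4 for the colon difference between sorts, from 3 to 7 between jejunum and ileum in positive cells, and from 0 to 2 between ileum and colon in negative cells. Library size alone moved the median log2 fold change of all genes from -0.16 to 0.27 in the duodenum and from -0.28 to 0.02 in the jejunum. Values that turned their sign were not called in either fit. With library size alone, *Nt5e* in the duodenum became 0.31 and *Pnp* in the jejunum 0.12. As a separate alternative, summing near-identical copies moved *Pnp* in the jejunum from -0.29 to 0.74. *Enpp3* in the colon became -0.0514 with RLE factors, -0.0029 with library size alone, -0.0551 with protein-coding genes and -0.0519 by DESeq2. Leaving out 1 library gave -0.54 to 0.37 for *Nt5e* and -0.60 to 0.53 for *Slc28a1* in the duodenum, -0.65 to 0.0739 for *Pnp* in the jejunum, -3.08 to 1.97 for *Slc28a1* in the colon (fitted on 0 to 2 counts a library, so not a measured fold), and -0.97 to 1.01 for *Slc28a2* and -0.14 to 0.27 for *Enpp3* in the colon. The cause was not tested. With the i5 index of the libraries as a covariate, 3, 9, 9 and 3 genes passed between sorts from duodenum to colon, as without it. The ileum without both libraries numbered 1 and the summed copies were chosen after seeing the data. Libraries held 0 to 10 counts of *Slc28a1* in the ileum and 0 to 2 in the colon, and 2 to 6 counts of *Pnp* in positive cells of the duodenum and colon, so that differences there rest on few reads. *Slc28a3* held as few as 4 counts in a positive duodenum library and 9 in a positive jejunum library.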
